A study of Homo sapiens with 12 samples.

Results

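Genes of the extracellular matrix and its remodelling were followed in cells given 3 hepatoprotective agents. They were taken by gene symbol: collagen chains, lysyl oxidases, matrix metalloproteinases (MMPs), tissue inhibitors of metalloproteinases (TIMPs), laminin chains, tenascin C (TNC), fibronectin (FN1), FREM1 and SMAD7. The arrays measured 75 such genes, read by 78 probes, of 13881 genes with a symbol. For a gene with several probes, the one brightest on average in log2 intensity was taken.

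The cells were labelled HepG2, an established line from a human hepatocellular carcinoma, and were grown in DMEM with fetal bovine serum. Of 12 one-colour arrays labelled with Cy5, 3 came from mock-treated control cells. The others, 3 per agent, came from cells given 25 µM glycyrrhizin (a saponin of liquorice root), silymarin (flavonolignans of milk thistle) or ursodeoxycholic acid (a bile acid). All groups share 1 cell line, so nothing here extends to matrix-producing cells of the liver. Whether a group's 3 arrays stem from independent cultures is not stated in the labels, so the p-values measure array-to-array spread alone, and that spread may be technical. The labels used here give neither exposure time nor vehicle.

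Values are log2 intensities, and the median gene averaged 6.70 over the 12 arrays. A probe's brightness depends on its own sequence as well as on its transcript, so levels are described by their place among all probes and are not compared between genes. The tables used here carry no detection calls, so for the dimmest genes signal and background cannot be separated. Few markers of the labelled cell type were among the brightest genes. Of 16 measured hepatocyte markers 8 lay above the median gene and 1, APOB, in the brightest 25% of genes. The dimmest were the transport protein gene APOH and the urea cycle gene CPS1, at 3.55 and 3.68. Of 13 measured neuroblast and sympathetic neuron markers 10 lay above the median gene, and the dimmest was ELAVL4 at 3.28. In the brightest 25% lay 7, among them TH, the tyrosine hydroxylase of catecholamine synthesis, at 12.49. Of 9 measured fibroblast and stellate cell markers 2 did, S100A4 and the intermediate filament gene VIM, the latter at 15.53. Endothelial markers placed 3 of 9 there, leukocyte markers 2 of 8 and cholangiocyte markers 0 of 5, and no marker was at the lowest deposited value of 1 on any array. The label HepG2 is kept as the submitters' name.

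Collagens are triple helices of 3 chains, which assemble into fibrils, networks or filaments according to type. Lysyl oxidases cross-link collagen and elastin outside the cell. MMPs cleave matrix proteins and TIMPs block them. Laminins and type IV collagen build basement membranes. Transforming growth factor beta (TGF-beta) drives the transcription of many of these genes through SMAD proteins, and SMAD7 is its feedback inhibitor. In the liver, excess fibrillar collagen made by activated stellate cells is the substance of fibrosis.

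The promoters of 4 genes whose arrays stood apart in at least 1 comparison are shown, so that a reader can see what lies before their starts. RefSeq promoter windows (GRCh38.p14) were matched by symbol for 50 of the 75 genes. Each line gives the 250 bases before the annotated start, read 5′ to 3′ on the gene's strand, with matches to the searched motifs in capitals. LOXL1 lies at chr15:73926212-73926461 (plus strand), TIMP3 at chr22:32801455-32801704 (plus strand), MMP15 at chr16:58025504-58025753 (plus strand) and TNC at chr9:115118158-115118407 (minus strand).
LOXL1: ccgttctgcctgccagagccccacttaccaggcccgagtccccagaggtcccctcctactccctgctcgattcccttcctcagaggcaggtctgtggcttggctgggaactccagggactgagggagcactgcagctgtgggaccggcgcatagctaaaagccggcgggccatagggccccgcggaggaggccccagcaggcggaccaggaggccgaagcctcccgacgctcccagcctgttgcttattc
TIMP3: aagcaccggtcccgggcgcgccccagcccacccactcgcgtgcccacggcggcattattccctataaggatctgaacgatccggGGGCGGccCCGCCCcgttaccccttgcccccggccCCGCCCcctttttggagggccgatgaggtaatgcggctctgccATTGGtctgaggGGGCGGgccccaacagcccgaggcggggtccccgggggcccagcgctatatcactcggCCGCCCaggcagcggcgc
MMP15: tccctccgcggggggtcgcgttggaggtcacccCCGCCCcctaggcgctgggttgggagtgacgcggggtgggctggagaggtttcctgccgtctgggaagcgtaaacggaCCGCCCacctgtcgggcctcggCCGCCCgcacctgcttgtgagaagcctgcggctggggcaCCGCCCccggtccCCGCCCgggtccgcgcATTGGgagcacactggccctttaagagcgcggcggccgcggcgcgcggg
TNC: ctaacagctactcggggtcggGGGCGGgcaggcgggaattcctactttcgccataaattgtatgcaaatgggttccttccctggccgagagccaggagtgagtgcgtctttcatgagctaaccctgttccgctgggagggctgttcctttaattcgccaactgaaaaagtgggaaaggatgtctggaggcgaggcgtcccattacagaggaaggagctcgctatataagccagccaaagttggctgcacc
The motifs were searched on both strands and did not overlap one another in these 4 windows: the GC box GGGCGG, the CCAAT box CCAAT, the TATA box TATAAA, the AP-1 element TGANTCA and the SMAD element GTCTAGAC. The TIMP3 and MMP15 windows each held 5 GC boxes and 1 CCAAT box, the TNC window held 1 GC box, and the LOXL1 window held none of the 5 motifs. Only these exact letters were counted, so a window without a match may still hold a variant form of an element. GC content was 72.4% for TIMP3, 74.8% for MMP15, 66.8% for LOXL1 and 54.8% for TNC, against a median of 58% over 35116 windows. A GC box stood in 27 of the 50 matrix gene windows (54%) and in 42.6% of all windows, a CCAAT box in 19 (38%) and 32%, a TATA box in 9 (18%) and 10.7%, and an AP-1 element in 4 (8%) and 6.57%. The AP-1 element was found before LAMA3, MMP7, MMP10 and MMP20. The SMAD element was found in 0 of the 50 windows and in 0.182% of all windows.

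The matrix genes covered the whole range of brightness. Of the 75, 39 lay above the median gene, 20 in the brightest 25% of genes and 14 in the dimmest 25%. Fibrillar collagens, the chains of the banded fibrils, had 7 of 10 above the median gene. Beaded filament and anchoring collagens had 3 of 3, MMPs 13 of 19 and laminin chains 3 of 10. Basement membrane collagens had 0 of 6, and 2 of them, COL4A3 and COL4A4, were at or under 3.91. The 8 brightest were COL6A2, LOXL1, COL5A2, COL2A1, COL16A1, LOXL3, COL25A1 and MMP2, at means of 12.33 to 10.14. FN1 averaged 6.72, TIMP1 5.10 and the liver fibrosis collagens COL1A1, COL1A2 and COL3A1 10.13, 6.03 and 6.13.

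**Figure D1:**
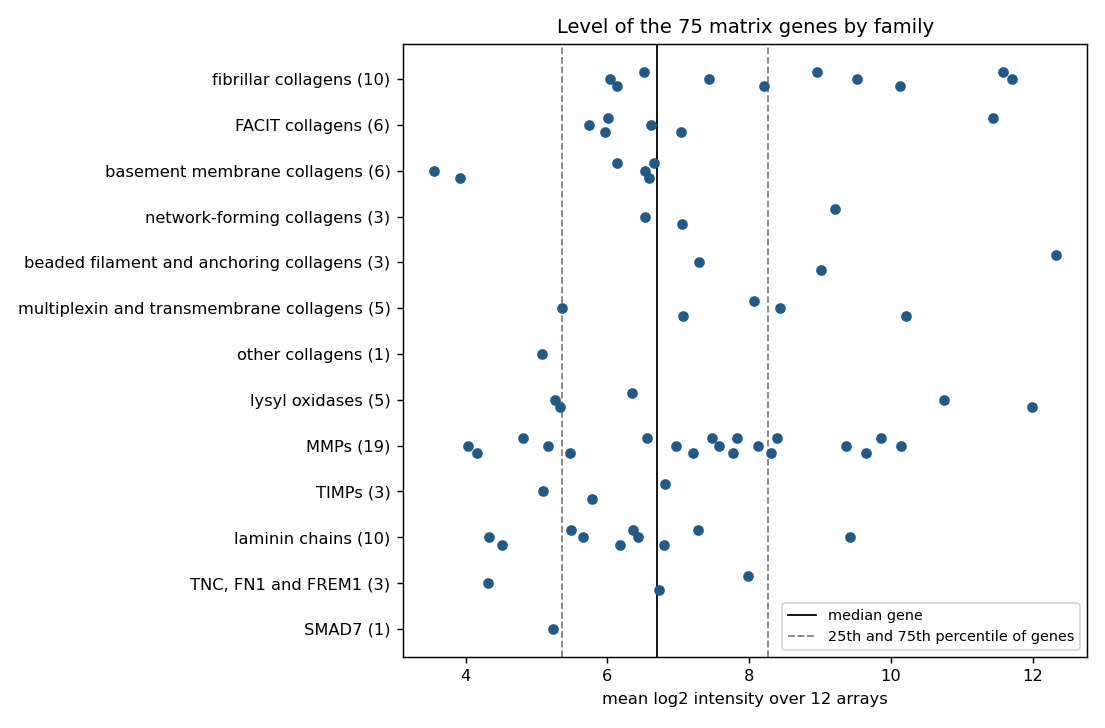
Mean log2 intensity over the 12 arrays (x axis) of each of the 75 matrix genes (points), in rows by family with the number of genes in brackets; the vertical lines mark the median gene (6.70) and the 25th and 75th percentiles of all genes (5.35 and 8.27). Fibrillar collagens, FACIT collagens, beaded filament and anchoring collagens and lysyl oxidases reach beyond 11, while all 6 basement membrane collagens lie below the median gene.

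Glycyrrhizin against control asked which matrix genes this agent affects. No matrix gene passed the threshold of an adjusted p of 0.05 in limma (0 of 75), and over all genes 1 of 13881 did (0.0072%). At an unadjusted p under 0.05 stood 4 genes higher, COL17A1, COL4A6, COL9A3 and TNC, against 2.46% of all genes in that direction. Lower were 5, COL16A1, LAMA1, MMP15, SMAD7 and TIMP3, against 3.24%. The 4 were 5.33% and the 5 were 6.67% of the matrix genes. The median log2 difference was 0.05 over the 75 genes and 0.02 over all genes, and 41 of 75 lay above control. Without control replicate 1 the median was −0.0043. Because these genes were put forward with earlier results of these arrays known, the shares are descriptions.

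Silymarin against control had its smallest p in the cartilage collagen COL2A1, 2.39-fold below control. Again 0 of 75 matrix genes passed, as did 0% of all genes in limma. At an unadjusted p under 0.05 stood COL4A6, LOXL4, TIMP2 and TNC higher (4 genes, against 3.05% of all genes) and COL2A1, LOXL1 and LAMA1 lower (3 genes, against 2.19%). When the variance was fitted as a trend on brightness with robust estimation, COL2A1 (adjusted p = 0.00227) and LOXL1 (adjusted p = 0.0473) passed, 2 of the 4 genes that passed over the table (0.0288%). The median difference was 0.05 over the 75 genes and 0.02 over all genes.

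Ursodeoxycholic acid against control likewise had 0 of 75 matrix genes past the adjusted threshold in limma, and 0% of all genes passed. COL4A6, COL9A3 and TNC were higher at an unadjusted p under 0.05 (3 genes, against 2.81% of all genes). COL2A1, COL9A1, FREM1, SMAD7 and TIMP3 were lower (5 genes, against 2.74%). The median difference was again 0.05, against 0.02 over all genes, and −0.032 without ursodeoxycholic acid replicate 1. The 3 comparisons share the same control arrays, so a gene whose control arrays were low or high by themselves stands apart in all 3.

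**Figure D2:**
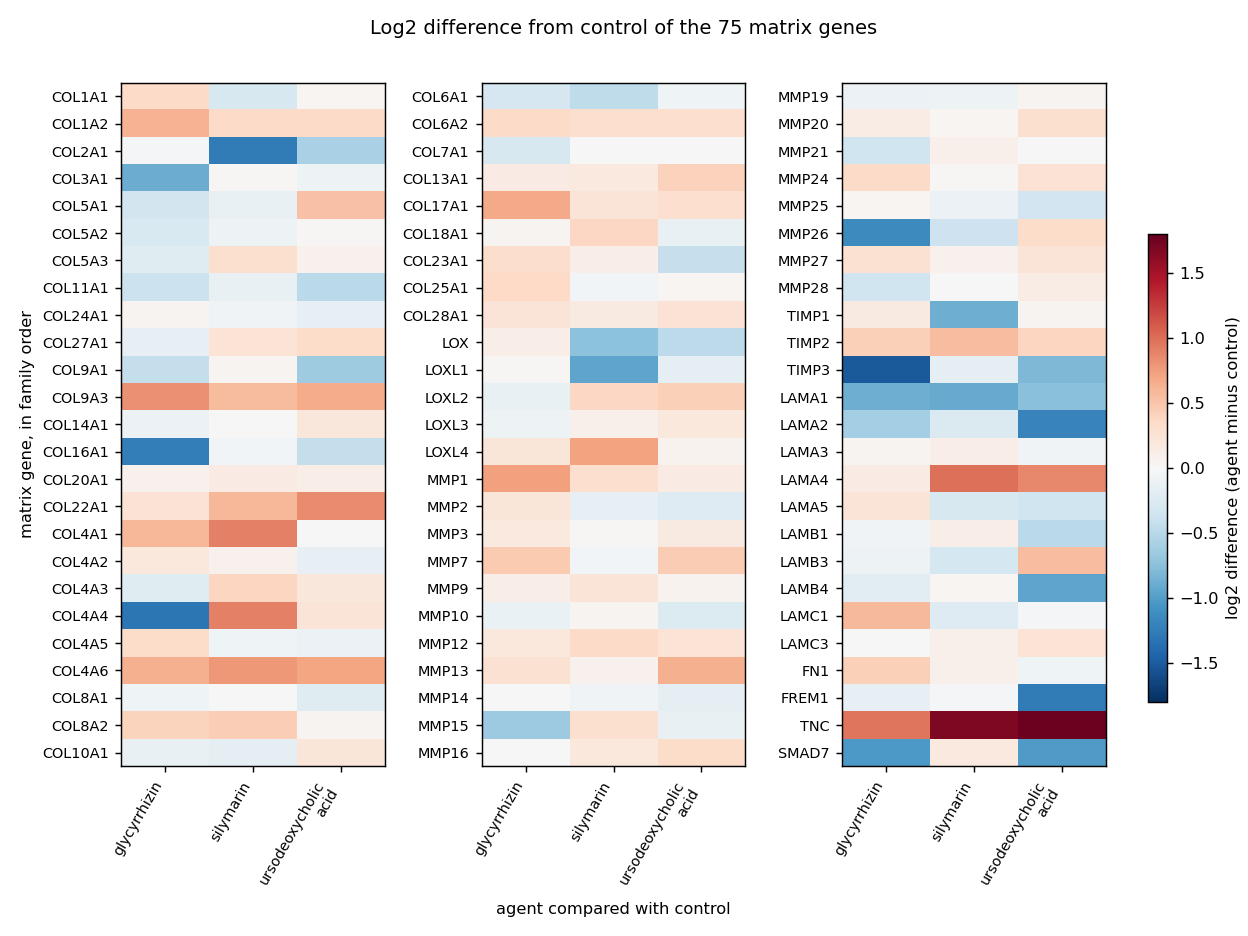
Log2 difference from control (colour; red higher, blue lower with the agent) of each of the 75 matrix genes (rows, in family order over 3 panels) for the 3 agents (columns), from group means of 3 arrays each. TNC is the deepest red, at 0.96, 1.68 and 1.77, and COL2A1 is blue with silymarin and ursodeoxycholic acid, at −1.26 and −0.58.

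Among the fibrillar collagens COL2A1 stood apart. The gene encodes the chain of cartilage fibrils, and its 12 values were as follows. In control it lay at 11.97, 12.17 and 12.01 and with glycyrrhizin at 11.84, 12.16 and 12.08. With silymarin it lay at 10.53, 10.93 and 10.91 and with ursodeoxycholic acid at 11.47, 11.37 and 11.57. All silymarin arrays lay below all others, and all ursodeoxycholic acid arrays lay below control and glycyrrhizin without overlap. The log2 difference from control was −1.26 with silymarin (SE 0.18, 95% interval −1.67 to −0.85, adjusted p = 0.157) and −0.58 with ursodeoxycholic acid (SE 0.18, adjusted p = 0.767). With glycyrrhizin it was −0.02 (95% interval −0.43 to 0.39). Leaving out any 1 array kept the silymarin difference between −1.33 and −1.13.

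The other fibrillar chains showed smaller shifts. COL5A2, a chain that regulates fibril width, lay at 11.89, 11.56 and 11.95 in control, 11.48, 11.51 and 11.57 with glycyrrhizin, 11.85, 11.74 and 11.55 with silymarin and 11.93, 11.60 and 11.93 with ursodeoxycholic acid. All groups overlapped except glycyrrhizin and ursodeoxycholic acid, which lay close together but apart. COL1A1, the main chain of type I fibrils, lay at 10.14, 10.41 and 9.75 in control, 10.32, 10.43 and 10.61 with glycyrrhizin, 9.79, 9.81 and 9.85 with silymarin and 10.38, 10.38 and 9.66 with ursodeoxycholic acid. Its glycyrrhizin arrays lay above all silymarin arrays (log2 difference 0.63, SE 0.24, adjusted p = 0.399), with control spread across both. Its partner chain COL1A2 ran from 4.95 to 6.88 and COL3A1 from 5.19 to 7.34, with overlap between every pair of groups for both except glycyrrhizin and the other agents in COL3A1. COL5A3 was lower with glycyrrhizin than with silymarin by 0.50 on the log2 scale (adjusted p = 0.427). COL5A1, which starts and limits fibrils, lay at 9.30, 8.56 and 8.95 in control, 8.70, 7.87 and 9.23 with glycyrrhizin, 8.78, 8.53 and 9.10 with silymarin and 9.49, 9.19 and 9.71 with ursodeoxycholic acid. It was lower with glycyrrhizin than with ursodeoxycholic acid by 0.86 (adjusted p = 0.854), or by 0.50 without glycyrrhizin replicate 2, and the arrays of these groups overlapped. COL27A1 was lower by 0.47 in the same pair (adjusted p = 0.854). Of the 10 chains 3 lay above control with glycyrrhizin, 4 with silymarin and 6 with ursodeoxycholic acid.

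FACIT collagens, which sit on the surface of fibrils, gave 3 of the genes at low unadjusted p. COL16A1 lay at 11.78, 11.77 and 12.04 in control and at 9.66, 11.76 and 10.45 with glycyrrhizin. With silymarin it lay at 11.74, 11.68 and 12.04 and with ursodeoxycholic acid at 11.84, 11.26 and 11.22. The glycyrrhizin arrays were the most scattered (SD 1.06, n = 3), and the second of them stood next to control. The difference of glycyrrhizin from control was −1.24 (SE 0.43, adjusted p = 0.724), or −0.76 without glycyrrhizin replicate 1. COL9A3, a type IX chain of cartilage fibrils, lay at 6.82, 5.96 and 6.78 in control, 7.23, 7.28 and 7.51 with glycyrrhizin, 7.04, 7.49 and 6.74 with silymarin and 7.23, 6.93 and 7.40 with ursodeoxycholic acid. It differed from control by 0.82, 0.57 and 0.67 in that order (adjusted p = 0.724, 0.932 and 0.893). The second control array was the lowest, and without it the differences were 0.54, 0.29 and 0.39. COL9A1, another type IX chain, lay at 5.88, 6.18 and 5.95 in control, 5.56, 5.74 and 5.40 with glycyrrhizin, 5.80, 6.34 and 5.99 with silymarin and 5.45, 5.48 and 5.18 with ursodeoxycholic acid. Its ursodeoxycholic acid arrays lay below all control and silymarin arrays, by −0.64 from control (adjusted p = 0.765), or −0.32 with an offset of 50 added before the log. The glycyrrhizin arrays were also below control. The 2 measured type IX chains thus lay on opposite sides of control with ursodeoxycholic acid, neither past the threshold.

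Of the transmembrane collagens, COL17A1 of the epithelial hemidesmosome lay at 8.06, 7.97 and 8.35 in control and 8.71, 8.79 and 8.93 with glycyrrhizin, which did not overlap (log2 difference 0.68, SE 0.22, adjusted p = 0.673). With silymarin it lay at 7.93, 8.51 and 8.65 and with ursodeoxycholic acid at 8.36, 8.47 and 8.48. The glycyrrhizin arrays were the highest 3 of the 12. COL23A1, another transmembrane collagen, lay at 7.17, 6.97 and 7.02 in control, 7.27, 7.31 and 7.52 with glycyrrhizin, 7.48, 7.34 and 6.70 with silymarin and 6.06, 6.58 and 7.30 with ursodeoxycholic acid. It was higher with glycyrrhizin than with ursodeoxycholic acid by 0.72 (adjusted p = 0.854), or by 0.43 without ursodeoxycholic acid replicate 1. COL25A1, a collagen of neurons, lay at 9.91, 10.36 and 10.13 in control, 10.36, 10.48 and 10.62 with glycyrrhizin, 10.04, 10.04 and 10.17 with silymarin and 10.25, 10.28 and 9.96 with ursodeoxycholic acid. Its glycyrrhizin arrays lay above the other 3 groups, from control by less than the second decimal. COL6A2, a chain of beaded filaments and the brightest matrix gene, lay at 12.22, 12.22 and 11.84 in control, 12.28, 12.39 and 12.65 with glycyrrhizin, 12.34, 12.39 and 12.48 with silymarin and 12.55, 12.18 and 12.47 with ursodeoxycholic acid. Every glycyrrhizin and silymarin array lay above control, by means of 0.35 and 0.31, without passing.

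COL25A1, COL6A2 and MMP25 each had 2 probes, which differed in brightness and in part in their shifts. The dimmer COL25A1 probe averaged 5.76 against 10.22, and with glycyrrhizin it differed from control by −0.10 where the brighter differed by 0.35. The dimmer COL6A2 probe, at 9.77, gave 0.03, −0.09 and 0.24 for glycyrrhizin, silymarin and ursodeoxycholic acid where the brighter gave 0.35, 0.31 and 0.31. The dimmer MMP25 probe, at 6.42, gave −0.42, −0.55 and −0.48 where the brighter, at 8.39, gave 0.04, −0.10 and −0.35. For COL6A2 the dimmer probe thus did not repeat the brighter probe's values with glycyrrhizin and silymarin, and came near them with ursodeoxycholic acid.

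The 6 type IV chains of basement membranes are encoded in 3 pairs that are read in opposite directions from nearby starts. In the RefSeq table (GRCh38.p14) the starts lie 127 bases apart for COL4A1 and COL4A2 on chromosome 13, 419 for COL4A3 and COL4A4 on chromosome 2 and 380 for COL4A5 and COL4A6 on chromosome X, taking the first listed start of each. COL4A6 lay at 5.68, 5.71 and 5.41 in control, the lowest 3 of its 12 values. It lay at 5.87, 6.28 and 6.55 with glycyrrhizin, 6.19, 6.55 and 6.41 with silymarin and 6.40, 6.60 and 5.94 with ursodeoxycholic acid. The differences from control were 0.64, 0.78 and 0.72 (each SE 0.24; adjusted p = 0.739, 0.836 and 0.797), and 0.35, 0.44 and 0.40 with an offset of 50. Its neighbour COL4A5 lay at 5.63, 7.02 and 6.99 in control, 6.58, 7.30 and 6.76 with glycyrrhizin, 6.51, 7.05 and 5.86 with silymarin and 6.73, 6.21 and 6.39 with ursodeoxycholic acid. That gene's groups overlapped throughout, so the partner did not show the separation seen in COL4A6.

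COL4A1 lay at 5.71, 5.51 and 7.22 in control, 7.05, 6.67 and 6.53 with glycyrrhizin, 7.11, 7.47 and 6.60 with silymarin and 4.66, 6.66 and 7.11 with ursodeoxycholic acid. COL4A2 lay at 6.19, 6.85 and 6.85, 7.07, 6.71 and 6.69, 6.54, 7.28 and 6.32 and 6.87, 6.48 and 6.09 in the same order. These are the ubiquitous chains of basement membranes, and neither gene had a group clear of control. COL4A3 and COL4A4, chains of the kidney glomerulus and other specialised membranes, were among the dimmest of all genes. COL4A3 lay at 4.01, 3.84 and 3.61 in control, 3.56, 3.94 and 3.29 with glycyrrhizin, 5.37, 4.50 and 2.77 with silymarin and 4.11, 3.60 and 4.35 with ursodeoxycholic acid. COL4A4 lay at 2.64, 3.13 and 5.01, 0.12, 3.62 and 3.14, 4.59, 5.22 and 3.72 and 4.11, 4.95 and 2.42 in the same order. The lowest COL4A4 value, 0.12, stood near the lowest deposited value, and the difference between glycyrrhizin and silymarin of −2.21 was −1.12 without that array and −0.37 with an offset of 50.

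Laminins, the cross-shaped proteins of basement membranes, were mostly dim. LAMA1, the alpha chain of embryonic laminin, lay at 6.48, 5.80 and 6.57 in control, 5.53, 4.95 and 5.74 with glycyrrhizin, 5.19, 5.28 and 5.69 with silymarin and 6.22, 5.27 and 5.09 with ursodeoxycholic acid. Glycyrrhizin and silymarin arrays all lay below control, by −0.88 and −0.90 (each SE 0.35; adjusted p = 0.782 and 0.921). LAMC1, the common gamma chain, lay at 5.29, 5.45 and 5.49 in control, 6.06, 6.0 and 5.93 with glycyrrhizin, 5.14, 5.10 and 5.28 with silymarin and 4.79, 5.18 and 6.14 with ursodeoxycholic acid. Every glycyrrhizin array lay above control and silymarin, the latter by 0.83 (adjusted p = 0.343), or by 0.40 with an offset of 50 added to the intensities before the log. The offset also reduced LAMA1, to −0.47 and −0.49. LAMB3, a beta chain of epithelial laminin and the only laminin gene in the brightest 25% of genes, lay at 8.71, 9.71 and 9.73 in control, 9.88, 9.50 and 8.49 with glycyrrhizin, 9.09, 9.20 and 8.90 with silymarin and 9.95, 10.04 and 9.82 with ursodeoxycholic acid. Silymarin minus ursodeoxycholic acid was −0.87 without overlap (adjusted p = 0.568), and control lay below all ursodeoxycholic acid arrays. The other 7 laminin chains had no comparison at an unadjusted p under 0.05.

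Among the matrix glycoproteins, TNC had the smallest p of any matrix gene with ursodeoxycholic acid. Tenascin C is an adhesion-modulating protein of wounds and developing tissue. It lay at 3.36, 3.13 and 3.17 in control and 4.30, 4.11 and 4.13 with glycyrrhizin. With silymarin it lay at 4.30, 5.40 and 5.0 and with ursodeoxycholic acid at 5.45, 4.98 and 4.53. Every treated array lay above every control array. The differences from control were 0.96, 1.68 and 1.77 (each SE 0.30; adjusted p = 0.673, 0.357 and 0.176), and none passed. The probe was dim, in the lowest 5.9% of genes by mean. With an offset of 50 added to the intensities before the log the differences were 0.20, 0.44 and 0.47, and with an offset of 16 they were 0.43, 0.87 and 0.92.

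FREM1, a protein of the embryonic epidermal basement membrane, lay at 8.26, 8.42 and 8.33 in control, 8.03, 8.11 and 8.44 with glycyrrhizin and 8.30, 8.27 and 8.32 with silymarin. With ursodeoxycholic acid it lay at 6.09, 6.43 and 8.70. Arrays 1 and 2 of ursodeoxycholic acid were thus the lowest of the 12 and array 3 the highest. The difference from control was −1.26 (SE 0.53, adjusted p = 0.893). Without ursodeoxycholic acid replicate 3 it was −2.08 and passed in limma (adjusted p = 0.0251), where 0.144% of all genes did. The differences from glycyrrhizin and silymarin passed as well, where 0.0072% and 0.231% of all genes did. Without replicate 1 the difference from control was −0.77. FN1, the main adhesive protein of plasma and matrix and a product of hepatocytes, lay at 6.71, 7.23 and 5.89 in control, 7.11, 7.0 and 7.02 with glycyrrhizin, 6.71, 6.59 and 6.81 with silymarin and 6.80, 6.67 and 6.11 with ursodeoxycholic acid. Its control arrays spanned the whole range of the other groups, while glycyrrhizin lay above both other agents.

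Of the 5 lysyl oxidases, LOXL1 stood apart with silymarin. LOXL1, which cross-links elastin, lay at 11.97, 12.53 and 12.32 in control and 12.25, 12.30 and 12.33 with glycyrrhizin. With silymarin it lay at 11.31, 11.42 and 11.24 and with ursodeoxycholic acid at 12.30, 12.09 and 11.89. All silymarin arrays were below all 9 others, and the remaining groups overlapped. The difference of silymarin from control was −0.95 (SE 0.19, 95% interval −1.38 to −0.52, adjusted p = 0.48), and −1.10 to −0.82 when any 1 array was left out. With glycyrrhizin it was 0.02 (95% interval −0.41 to 0.45).

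The other lysyl oxidases did not repeat this. LOX, the founding member, lay at 6.78, 5.26 and 4.79 in control, 5.53, 5.37 and 6.29 with glycyrrhizin, 5.40, 3.88 and 5.32 with silymarin and 4.52, 5.98 and 4.90 with ursodeoxycholic acid. LOXL2 lay at 6.51, 5.58 and 6.44, 6.28, 6.02 and 5.82, 6.17, 6.59 and 6.88 and 6.66, 6.43 and 6.73 in the same order. Silymarin values of both met those of control. LOXL3 lay at 11.08, 10.67 and 10.33 in control, 10.70, 10.47 and 10.63 with glycyrrhizin, 10.84, 10.71 and 10.82 with silymarin and 10.94, 10.71 and 11.03 with ursodeoxycholic acid, with control the widest group. LOXL4 lay at 4.33, 5.22 and 5.45, 5.40, 4.95 and 5.30, 5.77, 5.62 and 5.79 and 4.59, 5.12 and 5.50 in the same order. Its silymarin arrays were the highest 3 of the 12, 0.73 above control (adjusted p = 0.931), or 0.40 without control replicate 1 and 0.31 with an offset of 50. LOXL1 and LOXL4 thus lay on opposite sides of control with silymarin.

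**Figure D3:**
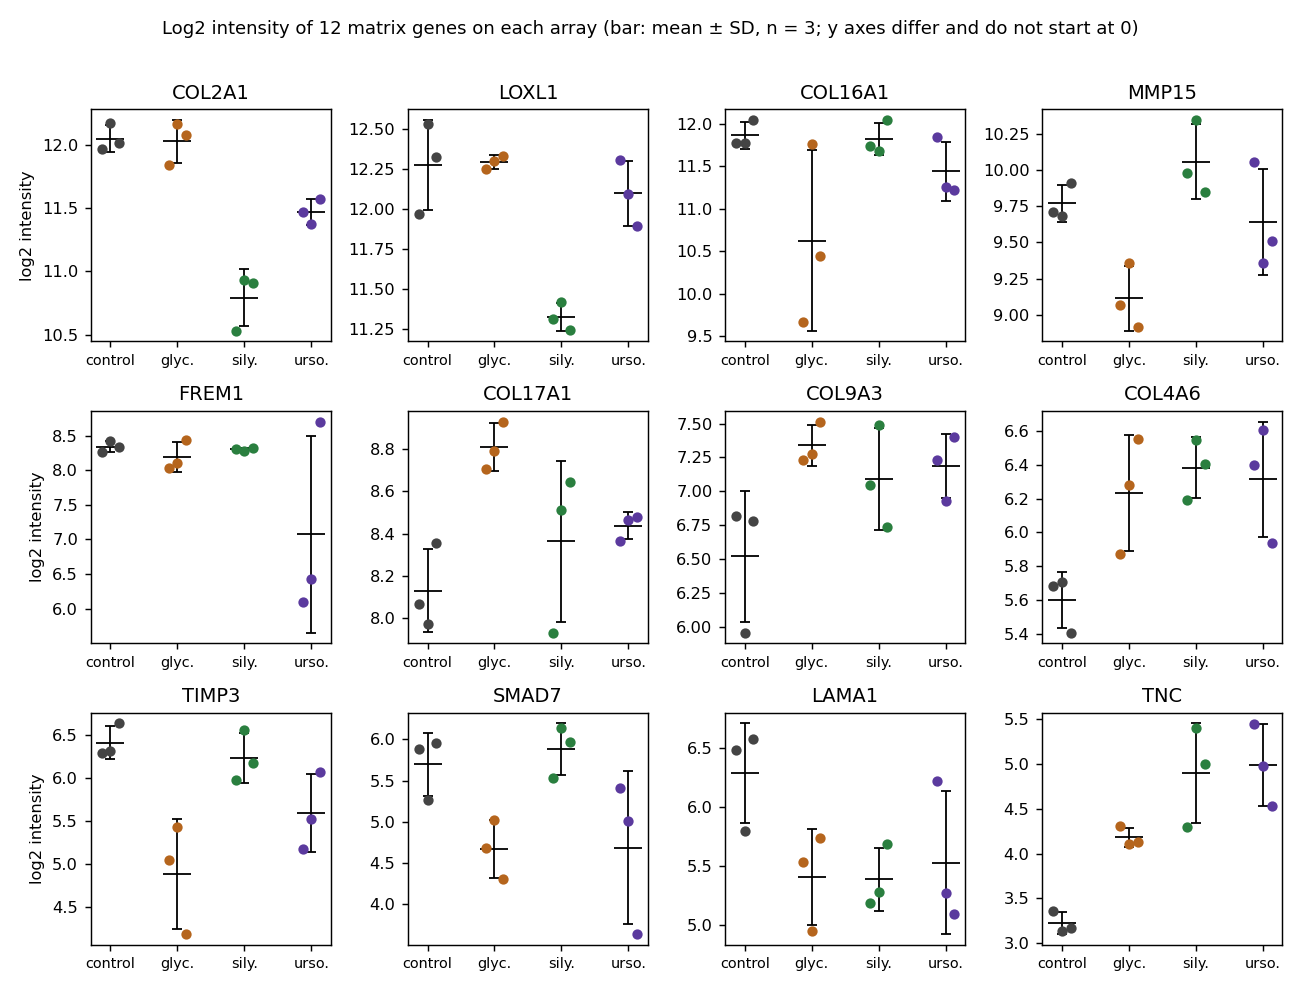
Log2 intensity (y axis, a scale of its own in each panel) of 12 matrix genes on each array (points), by group (x axis: control, glycyrrhizin, silymarin, ursodeoxycholic acid), with the mean and SD of 3 arrays as bars. COL2A1 and LOXL1 are lowest with silymarin, TIMP3 is lowest with glycyrrhizin, and TNC lies between 3.13 and 3.36 in control and at 4.11 or above on every treated array.

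The 19 MMPs lay between 4.03 and 10.14, and 1 of them, MMP15, had an unadjusted p under 0.05 against control. MMP15, a membrane-bound metalloproteinase, lay at 9.71, 9.68 and 9.91 in control, 9.07, 9.36 and 8.92 with glycyrrhizin, 9.98, 10.34 and 9.84 with silymarin and 10.06, 9.36 and 9.51 with ursodeoxycholic acid. Glycyrrhizin arrays lay below all control and silymarin arrays. The difference from control was −0.65 (SE 0.23, adjusted p = 0.736) and that from silymarin −0.94 (SE 0.23, adjusted p = 0.182). The latter passed with the variance trend (adjusted p = 0.0377). From ursodeoxycholic acid it differed by −0.53, or −0.32 without ursodeoxycholic acid replicate 1. MMP2, the gelatinase of mesenchymal cells, lay at 9.97, 10.39 and 10.19 in control, 10.24, 10.39 and 10.60 with glycyrrhizin, 10.08, 10.0 and 10.02 with silymarin and 9.82, 9.50 and 10.53 with ursodeoxycholic acid. Its ursodeoxycholic acid arrays spanned 9.50 to 10.53, wider than the other 3 groups together. Of the 19 MMPs 11 lay above control with glycyrrhizin, 12 with silymarin and 14 with ursodeoxycholic acid, where the share of all genes above control was 52.5%, 52.3% and 52.3%.

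Of the TIMPs, TIMP3 had the smallest p of any matrix gene with glycyrrhizin. TIMP3 is the inhibitor that stays bound to the matrix. It lay at 6.28, 6.30 and 6.63 in control and 5.05, 5.43 and 4.19 with glycyrrhizin. Values with silymarin were 5.98, 6.55 and 6.17 and with ursodeoxycholic acid 5.18, 5.53 and 6.07. Glycyrrhizin arrays lay below all control and silymarin arrays, and ursodeoxycholic acid arrays lay below all control arrays. The difference from control was −1.52 with glycyrrhizin (SE 0.33, 95% interval −2.26 to −0.78, adjusted p = 0.419) and −0.82 with ursodeoxycholic acid (adjusted p = 0.893). With an offset of 50 these were −0.74 and −0.45. Leaving out any 1 array kept the glycyrrhizin difference between −1.79 and −1.17.

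TIMP2 and TIMP1 did not follow TIMP3. TIMP2, which also takes part in activating MMP2, lay at 6.42, 6.37 and 6.62 in control, 7.12, 6.43 and 7.14 with glycyrrhizin, 6.71, 7.33 and 7.04 with silymarin and 7.05, 6.84 and 6.67 with ursodeoxycholic acid. Silymarin and ursodeoxycholic acid arrays lay above control without overlap, silymarin by 0.56 (adjusted p = 0.931). TIMP1, the soluble inhibitor, lay at 5.48, 5.30 and 5.01, 4.50, 5.81 and 5.97, 5.40, 2.72 and 5.03 and 5.22, 5.35 and 5.36 in the same order. Its groups overlapped, and the second silymarin array was the lowest of the 12. TIMP4 was not among the genes measured under a symbol.

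SMAD7 lay at 5.88, 5.26 and 5.95 in control and 4.68, 5.02 and 4.31 with glycyrrhizin, which did not overlap. The silymarin arrays lay at 5.53, 6.14 and 5.97 and the ursodeoxycholic acid arrays at 5.40, 5.01 and 3.63. It differed from control by −1.03 with glycyrrhizin and −1.01 with ursodeoxycholic acid (each SE 0.42; adjusted p = 0.798 and 0.893), and neither passed. The difference of ursodeoxycholic acid from control was −0.49 without its replicate 3. Between glycyrrhizin and silymarin the difference was −1.21 (adjusted p = 0.338), and between silymarin and ursodeoxycholic acid 1.20 (adjusted p = 0.513), or 0.67 without ursodeoxycholic acid replicate 3. With an offset of 50 the differences from control were −0.43 and −0.39, and those between agents −0.53 and 0.49.

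The agents were then compared with each other, with differences taken between their own means and the error still estimated from all 4 groups. Glycyrrhizin against silymarin put COL2A1 nearest to the threshold of any matrix gene in any comparison, at 12.03 ± 0.17 (SD, n = 3) against 10.79 ± 0.23, a 2.36-fold excess with glycyrrhizin (1.24 on the log2 scale, SE 0.18, adjusted p = 0.0548). LOXL1 was 1.96-fold higher (log2 difference 0.97, adjusted p = 0.126). TIMP3 was 2.54-fold lower with glycyrrhizin (adjusted p = 0.182) and MMP15 1.92-fold lower (adjusted p = 0.182). In limma 0 of 75 passed, against 0.0504% of all genes. With the variance trend COL2A1, LOXL1 and MMP15 passed (3 of 75, or 4%), against 1.56% of all genes.

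At an unadjusted p under 0.05 in this pair, COL1A1, COL2A1, LAMC1 and LOXL1 were higher with glycyrrhizin (4 genes, against 3.75% of all genes). COL16A1, COL4A4, COL5A3, COL9A1, MMP15, SMAD7, TIMP3 and TNC were lower (8 genes, 10.7% of the matrix genes, against 6.11% of all genes). COL9A1 was lower by 0.48 on the log2 scale. For COL16A1 the difference was −1.19, or −0.71 without glycyrrhizin replicate 1, and for TNC −0.72, or −0.47 without silymarin replicate 2. The median difference was −0.07 over the 75 genes and 0.01 over all genes.

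**Figure D4:**
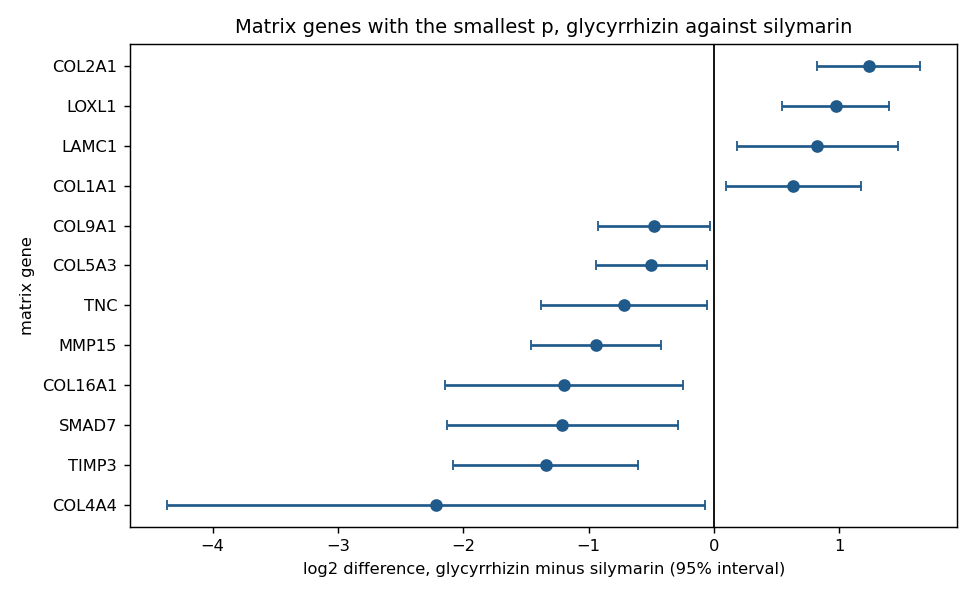
Log2 difference, glycyrrhizin minus silymarin (x axis), with its 95% interval from limma, for the 12 matrix genes (y axis) with an unadjusted p under 0.05 in this pair; n = 3 arrays per group. COL2A1 and LOXL1 lie at 1.24 and 0.97 with narrow intervals, and the interval of COL4A4, a dim gene at −2.21, is the widest.

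Glycyrrhizin against ursodeoxycholic acid had 0 of 75 past the adjusted threshold in limma, with 0% of all genes. COL2A1 and COL23A1 were higher with glycyrrhizin (2 genes at an unadjusted p under 0.05, against 2.68% of all genes). COL5A1, COL27A1, MMP15 and TNC were lower (4 genes, against 2.41%). COL2A1 differed by 0.56 without overlap (adjusted p = 0.854) and TNC by −0.81, also without overlap. The 95% intervals of TIMP3, −1.44 to 0.04, and of SMAD7, −0.94 to 0.91, both held 0, which does not show that the agents act alike.

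Silymarin against ursodeoxycholic acid had 0 of 75 past the adjusted threshold, against 0.0504% of all genes. COL9A1, FREM1 and SMAD7 were higher with silymarin at an unadjusted p under 0.05 (3 genes, against 5.03% of all genes), and COL2A1, LAMB3 and LOXL1 were lower (3 genes, against 3.49%). COL2A1 was 1.60-fold lower with silymarin (−0.68 on the log2 scale, SE 0.18, adjusted p = 0.415) and LOXL1 1.71-fold lower (−0.77, SE 0.19, adjusted p = 0.354). Neither overlapped between these groups. The share of the matrix genes, 4% in each direction, was near that of all genes.

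Genes that act on the same matrix were read from lists of related functions. Of 23 measured genes of collagen processing, 0 passed in limma against control with any agent. TLL2, a protease related to the enzyme that trims procollagen, was higher with all 3 agents at low intensity, by 1.03, 1.20 and 1.44 for glycyrrhizin, silymarin and ursodeoxycholic acid (adjusted p = 0.673, 0.801 and 0.482). PLOD2, a lysyl hydroxylase of collagen cross-links, differed by −0.31, −1.04 and 0.14 in that order, and P4HA1, a subunit of prolyl hydroxylase, by −1.06, −0.44 and −0.44. At an unadjusted p under 0.05 the list held 1 higher and 1 lower with glycyrrhizin, 1 and 2 with silymarin, and 2 and 0 with ursodeoxycholic acid. Over all genes the shares were 2.46% and 3.24%, 3.05% and 2.19%, and 2.81% and 2.74% in the same order. A count of 1 or 2 of 23 is a larger share than these, but rests on at most 2 genes. The summed intensity of the list ran from 22563 to 26003 in control, from 27157 to 29499 with glycyrrhizin, from 20864 to 22154 with silymarin and from 22933 to 29423 with ursodeoxycholic acid. P4HA2, another subunit of prolyl hydroxylase, made up 54.8% to 68.3% of these sums, and without it the 22 others ran from 9092 to 10194 in control and from 8955 to 9799 with glycyrrhizin, which overlapped.

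Of 23 measured TGF-beta signalling genes 0 passed, and 0 reached an unadjusted p under 0.05 against control with any agent. Between glycyrrhizin and silymarin 1 was higher and 4 were lower with glycyrrhizin at that level, against 3.75% and 6.11% of all genes. The ligand gene TGFB3 differed by −0.07, −0.47 and −0.43 for glycyrrhizin, silymarin and ursodeoxycholic acid, and SKIL, a repressor of SMAD signalling, by −0.65, 0.26 and −0.50. Of 21 measured basement membrane partners 0 passed. The proteoglycan decorin (DCN) differed by 0.50, −0.04 and 0.53, and FRAS1, whose protein forms a complex with that of FREM1, by 1.08, 0.79 and 1.44 at low intensity. Of 13 measured genes of the plasminogen system and other matrix proteases 0 passed, and the cathepsin gene CTSL differed by −0.01, −0.52 and −0.11.

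Each list of cell type markers was summed on each array to set beside these differences. Of the 9 fibroblast and stellate cell markers VIM alone made up 96.9% to 98.3% of the sum, so the other 8 were summed without it. They ran from 938 to 1001 in control, 1013 to 1399 with glycyrrhizin, 781 to 1134 with silymarin and 976 to 1377 with ursodeoxycholic acid. Every glycyrrhizin sum thus lay above control, and the other agents overlapped it. S100A4 was the brightest of these 8, at a mean log2 intensity of 8.54, and ran from 5.69 to 9.55 over the arrays. Its part in these sums was not separated, so they do not describe the 8 markers as a group. DCN, one of the 8, was higher by 0.50 with glycyrrhizin and 0.53 with ursodeoxycholic acid at an unadjusted p under 0.05 (adjusted p = 0.845 and 0.892). The 9 endothelial markers ran from 2588 to 2951 in control and from 3012 to 3279 with glycyrrhizin, without overlap. For the hepatocyte, cholangiocyte, leukocyte and neuroblast markers the sums with glycyrrhizin overlapped those of control. Hepatocyte markers ran from 1936 to 2087 in control and from 1797 to 1977 with glycyrrhizin. Leukocyte markers ran from 2172 to 2676 in control and from 2627 to 3170 with glycyrrhizin. The part of any marker group in the glycyrrhizin differences was not tested. In RNA from a whole culture, fewer cells of a type and less RNA per cell cannot be told apart.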

How the data were processed

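Each of the 12 arrays was deposited as a table of 1 intensity per probe. The deposited intensities, on a linear scale from 1 to 65221, had medians of 85.8 to 86.6 and nearly equal distributions; per the labels the arrays were 1-colour, and of the authors' background correction and normalization nothing is known here except that the submitters' processing notes name limma, without a role. No further normalization was applied. Intensities were taken to log2 (log2 of the deposited value, no offset). Of 27561 probes 15650 carry 1 gene symbol and 11911 none; 2355 symbols were updated through RefSeq. The brightest probe per gene gave 13881 genes. All 4 groups were fitted in 1 linear model in limma 3.58.1 (R 4.3.3), with moderated statistics and Benjamini-Hochberg adjustment over all 13881 genes, called at an adjusted p under 0.05. The fit was tested on simulated data. Genes named with every array's value were among the 5 smallest p of a comparison, the 3 largest differences of genes above the median gene, the 8 brightest, or the type IV collagens, TIMPs, lysyl oxidases, TNC, FN1, FREM1 and SMAD7; COL1A1 and LAMC1 fall outside this rule and were added after their values were seen; others are given by ranges and counts. Matrix genes and lists were chosen with earlier results of these data known. Deviations of same-numbered arrays from their group means correlated by −0.19 to 0.15, and numbers were not used as pairs in the main model. Alternatives were offsets of 16 and 50, quantile normalization, a filter on dim genes, averaged probes, a variance trend, array weights, the compared groups fitted alone, a replicate block and leaving out each array; a spread estimated on all probes was added after seeing the data. The number of arrays limits the precision.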

Additional observations from a re-analysis of the deposited data

How the results depend on the processing

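The count of matrix genes past an adjusted p of 0.05 was 0 in all 6 comparisons as reported. For silymarin against control it became 1 without the dimmer 50% of probes (COL2A1, of 47 matrix genes left), 2 with the variance trend (COL2A1 and LOXL1) and 1 with an offset of 50, where 0.0258%, 0.0288% and 0.0144% of all genes passed. For glycyrrhizin against silymarin it became 2 without the dimmer 50%, 3 with the variance trend, 1 with array weights, 1 with an offset of 16 and 2 with an offset of 50, where 1.42%, 1.56%, 0.144%, 0.137% and 0.929% of all genes passed. The dim filter tested fewer genes; the cause of the other changes was not tested. With 1 array left out the count ran from 0 to 1 in the 3 comparisons with ursodeoxycholic acid, from FREM1 without ursodeoxycholic acid replicate 3, and was 0 in the other 3. The median difference for glycyrrhizin against ursodeoxycholic acid ran from −0.11 to 0.067 when 1 array was left out. The median also turned negative for silymarin against ursodeoxycholic acid and in 2 comparisons with control. For silymarin against ursodeoxycholic acid it was −0.032 without ursodeoxycholic acid replicate 3 and −0.021 without ursodeoxycholic acid replicate 2. Without silymarin replicate 2 it was −0.0026. Alternatives were run for 51 differences of single matrix genes (those of small p or large size); none of these 51 changed sign. Other differences, those of COL6A2, COL25A1 and the related lists among them, were not rerun. With the spread estimated on all probes, chosen after seeing the data, the count was again 0 in all 6 comparisons. The labels give every group replicate numbers 1 to 3, and 4 of 18 same-numbered pairs correlated above 0.1 in their deviations from group means (median 0.02). Pairs of unlike number were not correlated, so whether same-numbered arrays share more than a number was not tested. With the replicate number as a block the count was 0 in all 6 comparisons. Dim probes limit the result: an offset of 50 reduced differences of TNC, TIMP3, SMAD7, COL4A6, COL4A4, LAMA1, LAMC1, COL9A1 and LOXL4 by over 1.5 times. An offset shrinks any log difference of a dim probe, so the reduction reflects low intensity and cannot test whether a difference is real. Over all probes, the glycyrrhizin arrays, control replicate 3 and silymarin replicate 2 correlated more with their own group than with other groups, by median. All ursodeoxycholic acid arrays, silymarin replicates 1 and 3 and control replicates 1 and 2 correlated less with their own group. For ursodeoxycholic acid replicate 3 the medians were 0.917 and 0.933. With 3 arrays per group, and cultures not described, small differences could not be resolved.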
